A study of Homo sapiens with 24 samples.

Results

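Interferon signals reach the nucleus through a short relay, and 9 genes of that relay are described here: the receptor chains IFNAR1, IFNAR2, IFNGR1 and IFNGR2, the kinases JAK1 and TYK2, and the transcription factors STAT2, IRF9 and IRF7. They were chosen by name, as the rows whose Ensembl identifier maps to these symbols, and are 9 of 60617 genes in the count matrix. All 9 had enough counts to be tested. The cells were THP1, a human monocytic leukaemia line that becomes macrophage-like when treated with the phorbol ester PMA. WT_shCTRL was wild-type THP1 carrying the empty lentiviral vector pLKO.1 (6 libraries), and WT_shPTPN6 was wild-type THP1 carrying a hairpin against PTPN6 (6 libraries). CD33KO_shCTRL was the CD33 knockout with the empty vector (6 libraries), and CD33KO_shPTPN6 was the CD33 knockout with the hairpin (5 libraries; replicate 2 of this group was not analysed here). Cells of all 4 groups therefore carried a lentivirus, were selected with 1 µg/ml puromycin and received 10 ng/ml PMA for 48 hours followed by 48 hours without it. No interferon treatment is named in the labels. The labels do not say whether the knockout is 1 clone or whether the replicates are separate cultures, so the p-values measure the spread between these libraries, which may be technical, and a property of the edited line cannot be told apart from the loss of CD33.

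Type I interferons bind IFNAR1 and IFNAR2, which carry the kinases TYK2 and JAK1, and the kinases phosphorylate STAT2. Phosphorylated STAT2 joins IRF9 in the complex ISGF3, which binds interferon-stimulated response elements and turns on antiviral genes, IRF7 among them. Interferon gamma binds IFNGR1, and IFNGR2 is needed to pass the signal on through JAK1 and JAK2 to genes with gamma-activated sites. CD33 is an inhibitory receptor of myeloid cells, and PTPN6 encodes the phosphatase SHP-1, which is known to restrain signalling by JAK kinases.

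Sequences bear on these genes in 2 places. The first is the site in PTPN6 against which the hairpin was designed, shown because all knockdown values rest on it. The site is 21 bases long, and capitals mark all of it.
shPTPN6 target: CGACATGCTCATGGAGAACAT
It is present without a mismatch in 7 of 23 annotated PTPN6 transcripts. In the 103 annotated transcripts of the 9 relay genes, the closest ungapped match had 7 to 9 mismatches, depending on the gene. This count does not cover shorter matches or other genes. Effects of the hairpin other than the loss of PTPN6 were not tested. The second is the upstream region of IRF9, shown because it held the single match found in a search for the binding motifs of these factors.
IRF9 upstream fragment: accacgtgatTTCTGGGAAaaggccctcc
Capitals mark a match to the gamma-activated site TTCNNNGAA, 63 to 55 bases upstream of the RefSeq transcription start. The fragment lies on the plus strand at chr14:24161192-24161220 of GRCh38.p14 (RefSeq). In GENCODE release 29 IRF9 starts at chr14:24161053, so by that annotation the fragment lies inside the gene. Both strands of the 250 bases upstream of each start were searched in the RefSeq promoters of 7 genes, with 11 starts. IFNAR2 and IRF7 had no matched entry. The gamma-activated motif occurred in 6.57% of 35116 promoters of this length. The interferon-stimulated response element (GAAA, any 2 bases, GAAA) occurred in 3.02% of them and in none of the windows of the 7 genes. A motif match is a description of the letters in the window.

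Library totals ran from 3318001 to 6269304 counts in the wild-type groups and from 2024032 to 3749258 in the knockout groups, which were shallower. PTPN6 averaged 44.6 ± 6.24 CPM (counts scaled to library size; SD, n = 6) in WT_shCTRL and 10.6 ± 1.45 (n = 6) in WT_shPTPN6, and it averaged 37.7 ± 3.88 (n = 6) in CD33KO_shCTRL and 7.41 ± 2.75 (n = 5) in CD33KO_shPTPN6. CD33 averaged 45.4 ± 3.24 CPM (n = 6) in WT_shCTRL and 20.2 ± 2.45 (n = 6) in CD33KO_shCTRL. With the hairpin it averaged 88.8 ± 5.33 (n = 6) in WT_shPTPN6, a rise of 0.97 ± 0.07 on the log2 scale (edgeR adjusted p = 4.95e-23), and 23.5 ± 4.86 (n = 5) in CD33KO_shPTPN6. The labels do not place the CD33 edit, so a 3' count need not report the loss of protein. All 15 macrophage markers examined had counts, but MRC1 had only 44 over all libraries and was not tested. Without the hairpin the summed level of the 15 was 3240 to 3693 CPM in wild type and 2207 to 2489 CPM in the knockout. With the hairpin it was 4966 to 5390 CPM and 3800 to 4056 CPM. The sum hides opposite changes: of the 14 tested, 4 rose and 8 fell with the knockout. CD14 ran from 235 to 314 CPM in WT_shCTRL and from 519 to 663 CPM in CD33KO_shCTRL. LYZ ran from 23.4 to 31.7 CPM and from 2.14 to 5.397 CPM in the same groups. Summed markers of lymphoid cells stayed between 9.38 and 24.7 CPM over all libraries. Without the hairpin, fibroblast and endothelial markers summed to 186 to 214 CPM in wild type and 437 to 480 CPM in the knockout. With it they summed to 385 to 454 CPM and 731 to 785 CPM, mostly from PECAM1, which myeloid cells also express. PECAM1 was not the only one to differ: of the 7 tested, 3 rose and 0 fell with the knockout. The endothelial marker TIE1 ran from 3.73 to 6.98 CPM in WT_shCTRL and from 42.7 to 52.6 CPM in CD33KO_shCTRL. It reached at most 2.73 CPM in WT_shPTPN6 and ran from 14.4 to 23.2 CPM in CD33KO_shPTPN6. Epithelial and HEK-293 markers summed to 47.1 to 66.4 CPM in wild type and 106 to 140 CPM in the knockout without the hairpin. With it they summed to 65.9 to 104 CPM and 91.2 to 113 CPM. These sums were mostly CDH1 and CDH2, with INA in wild type. INA ran from 12.1 to 20.7 CPM in WT_shCTRL and reached at most 0.49 CPM in CD33KO_shCTRL and 0.90 CPM in CD33KO_shPTPN6. The share of mitochondrial reads was 5.86 to 6.54% in wild type without the hairpin and 7.85 to 8.70% with it, and 6.36 to 7.13% over both knockout groups. The share of reads from ribosomal protein genes was 5.72 to 6.74% in wild type and 4.16 to 4.40% in the knockout without the hairpin, and 8.47 to 8.75% and 6.84 to 7.23% with it. These markers and shares moved with the groups, and their part in the results on the relay genes was not tested.

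**Figure D1:**
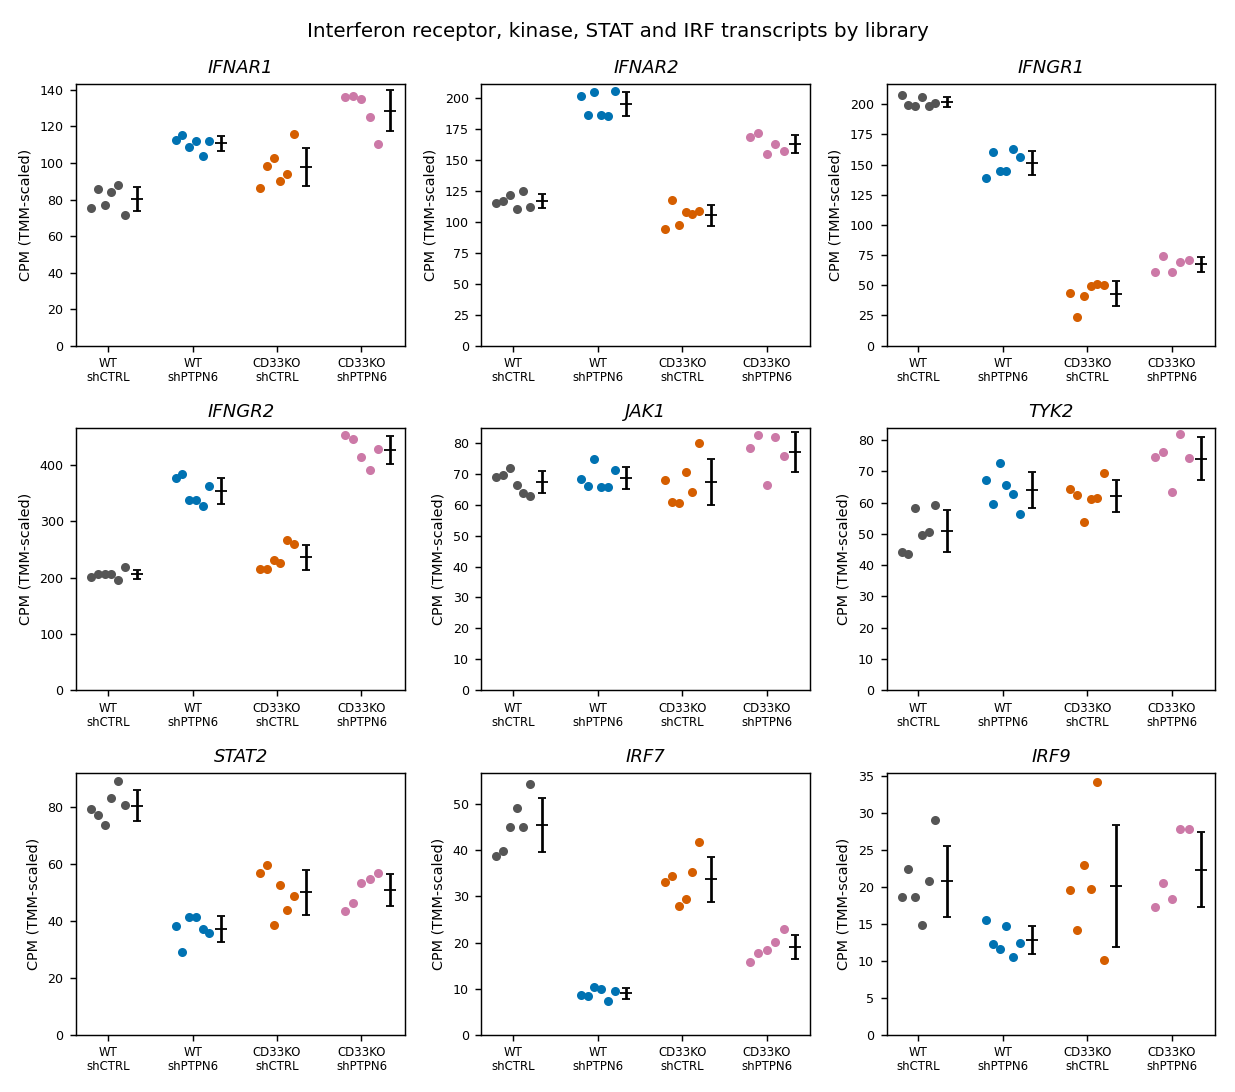
Level of each of the 9 genes in every library, in TMM-scaled CPM (y axis, starting at 0), by group (x axis). Points are libraries, and bars are the mean ± SD (n = 6, 6, 6 and 5). IFNGR1 separates the genotypes, the other 3 receptor chains rise with the hairpin, and STAT2 and IRF7 are lowest in WT_shPTPN6.

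IFNGR1, the ligand-binding chain of the interferon gamma receptor, fell more than any other of the 9 genes in the knockout. In WT_shCTRL its level ran from 198 to 208 CPM (median 200.2), and in CD33KO_shCTRL from 23.4 to 50.8 CPM (median 46.6). No library of either group reached the other, and the change was -2.20 ± 0.08 (log2 fold change ± SE; edgeR quasi-likelihood test, adjusted p = 3.17e-39). In wild-type cells the hairpin lowered IFNGR1 to 139 to 163 CPM (median 151), a change of -0.42 ± 0.06 (edgeR adjusted p = 5.11e-09) with no overlap. In the knockout the hairpin raised it: the 5 libraries of CD33KO_shPTPN6 read 60.8, 74.0, 61.0, 69.1 and 71.2 CPM, all above CD33KO_shCTRL, and the change was 0.62 ± 0.10 (edgeR adjusted p = 2.18e-07). The order of the levels was CD33KO_shCTRL, CD33KO_shPTPN6, WT_shPTPN6 and WT_shCTRL, and no neighbouring groups overlapped. The knockdown effect in the knockout exceeded that in wild type by 1.04 ± 0.12 on the log2 scale (interaction, edgeR adjusted p = 8.4e-12). The gene lies at chr6:137197484-137219449 on the minus strand (GRCh38). In bulk RNA, fewer cells that express a gene and less RNA per cell cannot be told apart.

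IFNGR2, the signalling partner of IFNGR1, rose in the knockout and with the hairpin in either genotype. It ran from 196 to 219 CPM (median 206) in WT_shCTRL and from 327 to 384 CPM (median 350.01) in WT_shPTPN6, a rise of 0.78 ± 0.05 (edgeR adjusted p = 1.65e-28). In the knockout it rose from 215 to 266 CPM (median 229) in CD33KO_shCTRL to 452, 445, 415, 390.2 and 427 CPM in CD33KO_shPTPN6, by 0.85 ± 0.05 (edgeR adjusted p = 5.57e-27). The groups with and without hairpin did not overlap in either genotype. The knockout itself raised IFNGR2 by 0.20 ± 0.05 (edgeR adjusted p = 0.000496), with overlapping groups. The interaction was 0.06 ± 0.07 (95% interval -0.08 to 0.21, edgeR adjusted p = 0.575), so a difference between the knockdown effects was not detected within that interval.

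The balance of the interferon gamma receptor chains differed between the groups. The ratio of IFNGR1 to IFNGR2 counts within a library was 0.983 ± 0.042 (SD, n = 6) in WT_shCTRL. It was 0.429 ± 0.041 (n = 6) in WT_shPTPN6, 0.182 ± 0.039 (n = 6) in CD33KO_shCTRL and 0.158 ± 0.017 (n = 5) in CD33KO_shPTPN6. The WT_shCTRL ratios, the WT_shPTPN6 ratios and the knockout ratios formed 3 ranges that did not overlap, whereas the ranges of the 2 knockout groups did. The ratio of IFNAR1 to IFNAR2 moved less: it was 0.688 ± 0.055 (n = 6), 0.570 ± 0.034 (n = 6), 0.933 ± 0.102 (n = 6) and 0.792 ± 0.062 (n = 5) in the same order. Here too the ranges of WT_shCTRL, WT_shPTPN6 and CD33KO_shCTRL did not overlap. The range of CD33KO_shPTPN6 overlapped those of WT_shCTRL and CD33KO_shCTRL. These ratios compare 3' read counts and are not ratios of protein.

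**Figure D2:**
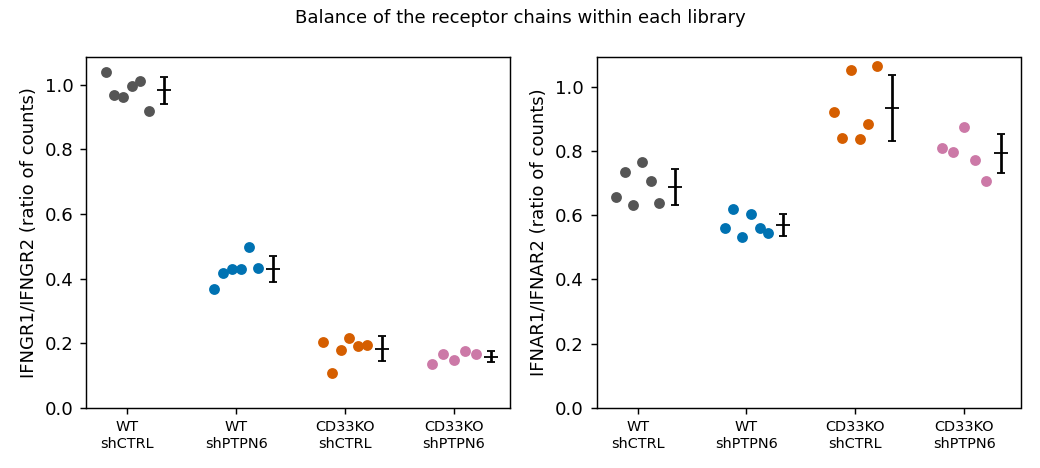
Ratio of raw counts of the 2 chains of each receptor in every library (y axis, no unit), by group (x axis), with IFNGR1 over IFNGR2 at left and IFNAR1 over IFNAR2 at right. Points are libraries and bars the mean ± SD. The gamma receptor ratio averages 0.983 in WT_shCTRL and 0.182 in CD33KO_shCTRL.

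Both chains of the type I receptor rose with the hairpin. IFNAR2, the high-affinity chain, ran from 109.9 to 125 CPM (median 116) in WT_shCTRL and from 186 to 206 CPM (median 194) in WT_shPTPN6, a rise of 0.74 ± 0.05 (edgeR adjusted p = 3.91e-25) with no overlap. In the knockout it rose from 93.9 to 117 CPM (median 107) to 168, 171, 154, 162 and 157 CPM, by 0.62 ± 0.06 (edgeR adjusted p = 8.02e-15), again with no overlap. IFNAR1, which binds TYK2, ran from 71.3 to 87.8 CPM (median 80.4) in WT_shCTRL and from 104 to 115 CPM (median 112) in WT_shPTPN6, a rise of 0.46 ± 0.06 (edgeR adjusted p = 6.36e-11). In the knockout IFNAR1 rose by 0.39 ± 0.07 (edgeR adjusted p = 2.4e-06), and those groups overlapped. The interactions were -0.12 for IFNAR2 (95% interval -0.28 to 0.04, edgeR adjusted p = 0.301) and -0.07 for IFNAR1 (95% interval -0.26 to 0.12, edgeR adjusted p = 0.638).

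The knockout moved the 2 type I chains apart. IFNAR1 rose by 0.28 ± 0.07 (edgeR adjusted p = 0.000128), and IFNAR2 fell by 0.15 on the log2 scale (SE 0.06, edgeR adjusted p = 0.0282). The small fall of IFNAR2 was not called when every library was thinned to 2024032 counts (adjusted p = 0.986), nor without WT_shCTRL replicate 5 (0.0562), CD33KO_shCTRL replicate 1 (0.0958) or CD33KO_shCTRL replicate 3 (0.0815); over all its alternatives the adjusted p ran from 0.00197 to 0.986. Under the hairpin the knockout lowered IFNAR2, with a log2 change of -0.27 ± 0.06 (edgeR adjusted p = 4.39e-05) and raised IFNAR1 by 0.21 ± 0.07 (edgeR adjusted p = 0.00459; 0.129 with no filter on low counts).

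The receptor genes, IFNAR2 (chr21:33229901-33265675), IFNAR1 (chr21:33324477-33359862) and IFNGR2 (chr21:33402896-33479348), share a cluster on chromosome 21 with IL10RB, a chain of the interleukin 10 and lambda interferon receptors. All 3 rose with the hairpin in both genotypes. IL10RB, which lies between IFNAR2 and IFNAR1, was not called in any of the 6 comparisons; its level averaged 16.4 CPM in WT_shCTRL and 18.5 CPM in WT_shPTPN6. In the knockout it averaged 13.2 CPM without and 17.2 CPM with the hairpin, a difference of 0.39 on the log2 scale (95% interval 0.04 to 0.75, edgeR adjusted p = 0.0663), which is as large as that of IFNAR1 there. OLIG1, a transcription factor gene at the edge of the cluster, rose with the hairpin by 2.04 in wild type (edgeR adjusted p = 2.95e-37) and 2.27 in the knockout (1.65e-34). On the opposite strand, IL10RB-DT covers the 3' end of IFNAR2, and the protein-coding gene TMEM50B covers that of IFNGR2. Totals over all libraries were 761 counts for IL10RB-DT and 2594 for TMEM50B, against 11994 for IFNAR2 and 23646 for IFNGR2. With the hairpin IL10RB-DT changed by 0.71 in wild type (edgeR adjusted p = 8.13e-05) and 0.54 in the knockout (0.144). TMEM50B changed by -0.21 (0.0306) and -0.15 (0.377). Whether the counting used strand is not given in the sources used here. Part of the IFNAR2 and IFNGR2 values may therefore be reads from the opposite strand, which was not tested.

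JAK1 is the kinase shared by both receptors. Its mean was 67.3 ± 3.50 CPM (SD, n = 6) in WT_shCTRL, 68.7 ± 3.68 (n = 6) in WT_shPTPN6, 67.4 ± 7.33 (n = 6) in CD33KO_shCTRL and 77.1 ± 6.58 (n = 5) in CD33KO_shPTPN6. The ranges of all 4 groups overlapped. The 95% interval of the log2 change was -0.14 to 0.14 for the knockout and -0.10 to 0.17 for the hairpin in wild type. The combined group differed from WT_shCTRL by 0.19 ± 0.08 (edgeR adjusted p = 0.022). That call was lost with upper quartile scaling (0.181), total count scaling (0.58) and no filter (0.139), and without WT_shCTRL replicate 5 (0.0615) or 6 (0.0621) or CD33KO_shPTPN6 replicate 3 (0.0709) or 5 (0.0596), and over all alternatives the adjusted p ran from 0.00616 to 0.58.

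TYK2, the kinase bound to IFNAR1, was modestly higher in each perturbed group. It ran from 43.7 to 59.4 CPM (median 50.2) in WT_shCTRL, 56.5 to 72.7 (median 64.3) in WT_shPTPN6 and 54.0 to 69.5 (median 61.9) in CD33KO_shCTRL. CD33KO_shPTPN6 read 74.6, 76.3, 63.3, 82.0 and 74.4 CPM, all above WT_shCTRL, while other neighbouring groups overlapped. The changes were 0.34 ± 0.07 for the hairpin in wild type (edgeR adjusted p = 3.24e-05), 0.29 ± 0.08 for the knockout (0.00147; 0.114 after thinning) and 0.54 ± 0.08 for the combination (2.02e-08). In the knockout the hairpin raised TYK2 by 0.25 ± 0.09 (edgeR adjusted p = 0.0168), a call lost with total count scaling (0.133) and without CD33KO_shCTRL replicate 3 (0.0518) or CD33KO_shPTPN6 replicate 5 (0.0595). The knockout effect under the hairpin, 0.20 ± 0.08 (edgeR adjusted p = 0.0372), passed in few alternatives: it was lost in 16 of 20, among them 9 of the 11 that leave out 1 library (WT_shPTPN6 replicates 1, 2, 4, 5 and 6 and CD33KO_shPTPN6 replicates 1, 3, 5 and 6, adjusted p 0.0533 to 0.163).

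STAT2, the ISGF3 subunit that carries the activation domain, fell with either perturbation alone. It ran from 73.6 to 89.2 CPM (median 80.1) in WT_shCTRL, 28.9 to 41.4 (median 37.7) in WT_shPTPN6 and 38.7 to 59.6 (median 50.7) in CD33KO_shCTRL. Neither perturbed group overlapped WT_shCTRL, and the changes were -1.11 ± 0.08 for the hairpin (edgeR adjusted p = 3.58e-25) and -0.70 ± 0.08 for the knockout (7.21e-13). In the knockout the hairpin left STAT2 at 43.5, 46.2, 53.4, 54.6 and 56.8 CPM, within the range of CD33KO_shCTRL. That difference was 0.04 ± 0.10 (95% interval -0.16 to 0.24, edgeR adjusted p = 0.783). The interaction was 1.15 ± 0.13 (edgeR adjusted p = 4.99e-13).

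IRF7, which amplifies interferon gene induction, showed the largest effect of the hairpin in wild type among the 9 genes. It ran from 38.8 to 54.5 CPM (median 45.2) in WT_shCTRL and from 7.22 to 10.4 CPM (median 9.02) in WT_shPTPN6, a change of -2.32 ± 0.11 (edgeR adjusted p = 3.04e-37), or 5.00-fold lower. In the knockout it ran from 27.9 to 41.8 CPM (median 33.8) without the hairpin and read 15.8, 17.8, 18.4, 20.1 and 22.9 CPM with it, a change of -0.82 ± 0.13 (edgeR adjusted p = 1.53e-07). Neither pair overlapped. The knockout alone changed IRF7 by -0.43 ± 0.10 (edgeR adjusted p = 0.000108), with overlapping groups. The fall with the hairpin was smaller in the knockout, by an interaction of 1.5 ± 0.18 (edgeR adjusted p = 2.49e-11).

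IRF9, the DNA-binding subunit of ISGF3, had the fewest counts and the widest spread. It ran from 14.8 to 29.1 CPM (median 19.8) in WT_shCTRL, 10.5 to 15.5 (median 12.4) in WT_shPTPN6 and 10.1 to 34.3 (median 19.6) in CD33KO_shCTRL. It read 17.3, 20.6, 18.4, 27.8 and 27.8 CPM in CD33KO_shPTPN6, above every WT_shPTPN6 library. The hairpin lowered IRF9 in wild type, with a log2 change of -0.66 ± 0.20 (edgeR adjusted p = 0.0067), with overlapping groups. No change was called for the knockout (95% interval -0.39 to 0.46) or for the hairpin in the knockout (-0.41 to 0.59). The interaction was 0.75 ± 0.31 (edgeR adjusted p = 0.0805), and without CD33KO_shCTRL replicate 5 it was 1.02 (0.000276) and without WT_shCTRL replicate 4 it was 0.83 (0.035). It also passed with no filter (0.00389), after thinning (0.0422) and with DESeq2 (0.0358), and over all alternatives the adjusted p ran from 0.000276 to 0.165.

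**Figure D3:**
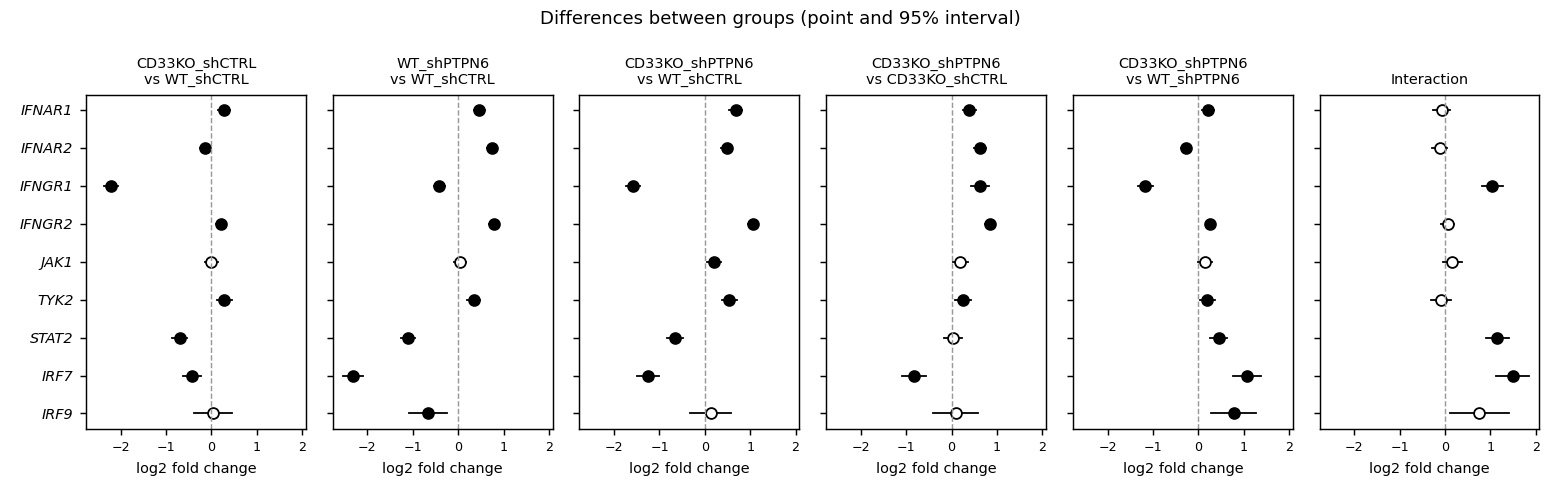
Log2 fold change of each of the 9 genes (x axis) in the comparisons of the study, with 95% intervals as lines; filled points have an edgeR adjusted p under 0.05. STAT2 and IRF7 lie below 0 for the hairpin in wild type and nearer to 0 in the knockout, and IFNGR1 changes sign.

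Counted over the 9 genes, the knockout raised 3 and lowered 4, in a comparison where 28.3% of the 13098 tested genes rose and 28.4% fell (56.7% called). The hairpin in wild type raised 4 and lowered 4 (30.2% and 30.4% of all genes, 60.6% called), and the combination raised 5 and lowered 3 (32.1% and 31.7%, 63.8% called). In the knockout the hairpin raised 5 and lowered 1 (20.5% and 21.6%, 42.1% called), and under the hairpin the knockout raised 6 and lowered 2 (29.0% and 27.5%, 56.5% called). Groups did not overlap for 2 genes (34.1% of all genes), 6 (37.4%), 7 (45.7%), 4 (24.2%) and 6 (37.2%) in the same order. With shares this high over all genes and 9 genes counted, the counts do not set the relay apart from other genes. The interaction was called for 3 of 9, all higher, against 28.4% of all genes in either direction with 14.5% higher and 13.9% lower.

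The sum of the single effects can be set beside the combined effect for the same genes. For IFNGR1 the sum was -2.62 and the combined change -1.58, for STAT2 -1.81 and -0.66, and for IRF7 -2.75 and -1.25. These are the 3 genes with a called interaction, and each lay closer to WT_shCTRL than the sum. The gap between the sum and the combined change is the interaction itself, so it adds no further evidence. The receptor chains without a called interaction had sums near the combined change: 0.99 and 1.05 for IFNGR2, 0.75 and 0.68 for IFNAR1, and 0.60 and 0.48 for IFNAR2. For the other genes without such a call the values were 0.63 and 0.54 (TYK2), 0.04 and 0.19 (JAK1), and -0.63 and 0.13 (IRF9). An interaction that is not called does not show that the effects add, and for IRF9 the signs differed. All of these changes share the WT_shCTRL libraries.

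Of the 13 other receptors, kinases, STATs and IRFs tested, 5 rose and 5 fell with the knockout (28.3% and 28.4% of all genes). With the hairpin in wild type 3 rose and 4 fell (30.2% and 30.4% of all genes). IRF1, a target of interferon gamma, rose with the hairpin by 1.15 in wild type and 1.21 in the knockout. IRF5 and IRF8, factors of myeloid cells, fell in the knockout, with log2 changes of -1.10 and -0.70. The genes with a called, higher interaction included IRF2 (0.56), JAK2 (0.39) and STAT3 (0.30).

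Target genes of ISGF3 were lower with either perturbation of wild-type cells. Of 52 listed and tested, 49 fell and 1 rose with the knockout (median log2 change -1.01, against -0.01 over all genes), and 51 fell with the hairpin in wild type (median -1.66, against 0.00). In the knockout the hairpin lowered 18 and raised 4 (median -0.19), and the interaction was higher for 51 (median 1.41, against 0.00). Over all genes 28.3% rose and 28.4% fell with the knockout, and 30.4% fell with the hairpin in wild type. For the hairpin in the knockout 20.5% rose and 21.6% fell, and the interaction was higher for 14.5%. OAS1, a sensor enzyme for double-stranded RNA, fell with the knockout (log2 change -1.79), and RIGI, a receptor for viral RNA, fell with the hairpin in wild type (-3.01). The 18 genes lowered in the knockout were all among the 51 lowered in wild type. Nearly any 18 of the 52 would be, so this overlap carries no information. The 1 rise, of ZNFX1 (0.16), was not called under the other scalings. This list was chosen with results of these data known, so its direction is not independent evidence.

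**Figure D4:**
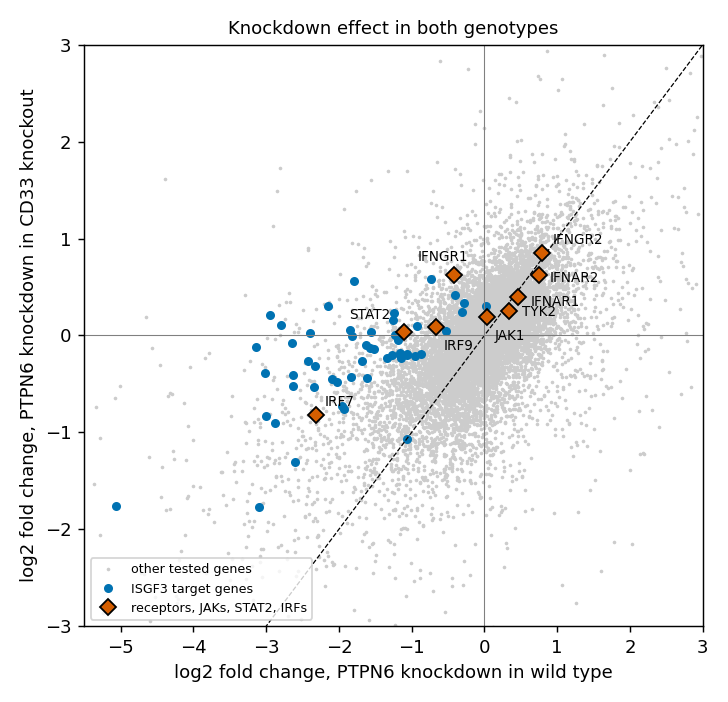
Log2 fold change with the PTPN6 hairpin in wild type (x axis) and in the CD33 knockout (y axis) for each tested gene; orange diamonds are the 9 genes, blue points the ISGF3 target genes and grey points the others, and 66 genes lie beyond the axes. The dashed line marks equal changes. IFNGR2 lies near that line at 0.78 and 0.85, while STAT2 and IRF7 lie with the ISGF3 targets above it.

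Targets of interferon gamma moved in both directions, and more fell than rose. Of 28 tested, 6 rose and 15 fell with the knockout (median log2 change -0.39, against -0.01 over all genes). With the hairpin in wild type 5 rose and 11 fell (median -0.09, against 0.00). Over all genes 28.3% rose and 28.4% fell with the knockout, and 30.2% and 30.4% with the hairpin in wild type. ICAM1, an adhesion molecule, rose with the knockout by 1.87, and CD74, the invariant chain of class II antigen presentation, fell (log2 change -1.14). TAP1, a peptide transporter, fell with the hairpin in wild type (-1.97). The interaction was higher for 10 and lower for 1 of the 28, against 14.5% and 13.9% of all genes.

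The genes before and around the relay were measured as well. The 21 interferon ligand genes together had 2 counts in 81845004 over all libraries, and none passed the filter; a count of 0 in a group allows up to 0.104 CPM in WT_shCTRL and 0.261 CPM in CD33KO_shPTPN6, for counting error only. Of 18 sensors and kinases upstream of interferon induction, 4 rose and 7 fell with the knockout and 8 rose and 4 fell with the hairpin in wild type. STING1, the adaptor of cytosolic DNA sensing, fell in these comparisons (log2 changes -1.96 and -1.12) and in the combination (-2.64). Of 22 negative regulators of the pathway, 7 rose and 9 fell with the knockout and 8 rose and 8 fell with the hairpin in wild type. USP18, which binds IFNAR2 and limits its signalling and is itself an interferon target, fell with the hairpin in wild type (log2 change -3.09). Of 18 other receptors that use JAK kinases, 5 rose and 7 fell with the knockout, and 8 rose and 7 fell with the hairpin in wild type. Beside these lists, 28.3% of all tested genes rose and 28.4% fell with the knockout, and 30.2% and 30.4% with the hairpin in wild type.

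Genes whose levels most resembled those of each gene were ranked by Pearson correlation over the 23 libraries among 10703 genes, as a description; the libraries share their groups. IFNGR1 was most like FCER1G (r = 0.970), the signalling chain of Fc receptors, and C3 (0.969). IFNGR2 was most like TALDO1 (0.978) and IRF1 (0.974), and IFNAR2 most like SLAMF8 (0.968). STAT2 was most like the interferon-stimulated genes IFI44L (0.948) and CMPK2 (0.934), and IRF7 most like CDK14 (0.981). JAK1 and IRF9 had no such close neighbour, with highest values of 0.803 (FAM193A) and 0.787 (TMEM216).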

How the data were processed

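RNA of 23 libraries in 4 groups was measured by 3'-end RNA sequencing from 100 ng of total RNA, per the labels' protocols. The authors deposited unnormalized read counts by gene; bcl2fastq, STAR 2.7.3a, featureCounts (Subread 2.0.0), hg38, R 3.6.1 and DESeq2 1.26.0 are named in the submitters' processing notes without roles. The annotation release and strand setting are not given in the sources used here. Library totals ran from 2024032 to 6269304 counts, so a gene at 10 CPM has few counts in the shallowest libraries; the 9 genes had 23 to 2326 counts per library.

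Counts were analysed in R 4.3.3 with edgeR 4.0.16: filterByExpr left 13098 genes, libraries were scaled by TMM, and all libraries entered 1 group-means model with robust dispersion. Quasi-likelihood F tests gave 6 contrasts, with p-values adjusted by Benjamini-Hochberg over the 13098 genes and called at 0.05. Each SE was derived from the fold change and its F statistic. Alternatives were RLE, upper quartile and total count scaling, no filter, a filter of 5 CPM in 5 libraries, only the groups compared, a replicate block, thinning to the smallest library, DESeq2 1.42.0 and leaving out each library. The scripts were tested on simulated data. No 2 libraries held identical counts. Positions come from GENCODE release 29 (GRCh38). A planned comparison of protein sequences was not run.

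The 9 genes and the gene lists were chosen with earlier results of these data known. Genes named from a list were picked for each comparison with WT_shCTRL. They are at most the 2 called members per direction with the smallest adjusted p, among those with a mean of at least 5 CPM. IL10RB, IL10RB-DT, TMEM50B, OLIG1 and the members of the relay list are named by position or role, and cell type markers as examples. A gene of the relay is not reported here.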

Additional observations from a re-analysis of the deposited data

Results flagged for a closer look

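In CD33KO_shCTRL replicate 2, IFNGR1 stood at 23.4 CPM, apart from the other 5 libraries of its group at 40.9 to 50.8 CPM. Of 36 groups of values examined, this was the only 1 set apart in this way, and chance does so in about 1 in 20 groups. Without that library the knockout effect on IFNGR1 was -2.10, the hairpin effect in the knockout 0.50 and the interaction 0.91, and all 3 kept their calls.

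The effect of the hairpin differed between the genotypes for 3 genes, by the interaction term of the edgeR quasi-likelihood model. The difference, knockout minus wild type on the log2 scale, was 1.04 for IFNGR1, 1.15 for STAT2 and 1.5 for IRF7. IFNGR1 fell in wild type and rose in the knockout, and IRF7 fell in both.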

How the results depend on the processing

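The counts of called genes, over all genes and over the 9 genes, stayed within 1.5 times their values under every alternative run; leaving out 1 library gave 7049 to 7221 genes for the knockout and 7635 to 7830 for the hairpin in wild type. Total count scaling shifted the median of all genes in the combined comparison by -0.14 and the share of higher calls from 50.3% to 37.9%, and in the hairpin comparison within the knockout from 48.7% to 35.6%. No called change of the 9 genes reversed. Uncalled changes near 0 did, and the cause was not tested. JAK1 in the knockout was -0.011 with RLE, -0.054 with upper quartile, -0.056 with total count scaling, -0.045 with no filter, -0.0028 with the stricter filter, -0.0011 with only the groups compared, -0.014 with DESeq2 and -0.062 to 0.028 when 1 library was left out. IRF9 in the knockout was -0.020 with upper quartile and -0.021 with total count scaling, -0.0072 with no filter, -0.038 after thinning, -0.029 with DESeq2 and -0.26 to 0.16 when 1 library was left out. With total count scaling JAK1 was -0.048 for the hairpin in wild type, IRF9 -0.017 for the combination and STAT2 -0.047 for the hairpin in the knockout. For the hairpin in the knockout, leaving out 1 library gave STAT2 -0.018 to 0.092 and IRF9 -0.045 to 0.37. After thinning the interactions of IFNAR1 and TYK2 were 0.032 and 0.016.

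Same-numbered libraries of different groups did not deviate together (33 pairs, r from -0.049 to 0.032, of which 7 correlated best with their own number). No pairing of the libraries by number was thus detected, which does not show that none exists. With the replicate number as a block, 7362 genes were called for the knockout, 7878 for the hairpin in wild type and 3626 for the interaction, and among the 9 genes the block removed 1 call, TYK2 for the knockout under the hairpin (0.18, adjusted p = 0.0679). The lowest count in a library was 23 for IRF9 (CD33KO_shCTRL replicate 6) and 24 for IRF7 (WT_shPTPN6 replicate 5), which limits their precision.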
